A study of Mus musculus with 95 samples.

Results

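The data described here are the H2AK119ub1 peak lists of wild-type mouse embryonic stem cells and of 6 lines labelled as knockouts of Pcgf genes. They were chosen by the antibody named in the labels, H2AK119Ub1, which gave 8 of the 95 samples of the series. There was 1 library each for wild-type, Pcgf1-/-, Pcgf2/4-/-, Pcgf3/5-/-, Pcgf6-/- and Pcgf3/5/6-/-, and 2 libraries for Pcgf1/2/4-/-, called replicate 1 and replicate 2 here. All 7 genotypes were E14 cells, a feeder-independent line derived from the mouse inner cell mass. They were grown on gelatin with serum, leukemia inhibitory factor, the GSK3β inhibitor CHIR99021 and the MEK inhibitor PD0325901. The knockout lines were clones made with Cas9, and the lines edited in several genes were built by editing clones that already lacked a Pcgf gene. Values of a line are therefore values of the clone or clones behind it, which the labels do not count. Pcgf4 is the gene also called Bmi1.

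H2AK119ub1 is a single ubiquitin on a lysine in the tail of histone H2A. Polycomb repressive complex 1 (PRC1) places it through the E3 ligases RING1A and RING1B, each of which pairs with a PCGF protein. PCGF2 and BMI1 form the canonical complexes, which bind H3K27me3 through CBX proteins, while PCGF1, PCGF3, PCGF5 and PCGF6 form variant complexes with RYBP or YAF2. In embryonic stem cells PRC1 is known for holding silent the genes of developmental transcription factors, and the PCGF6 complex, which contains the DNA-binding proteins MGA and MAX, for silencing germline genes. PRC2 places H3K27me3 and contains SUZ12. H3K4me3 marks CpG-rich promoters that can be transcribed.

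Each peak has a position, a fold enrichment and a −log10 p, all as the authors' peak caller gave them. Each list was ranked by −log10 p, and because the smallest list held 1070 peaks, the top 1070 of each list were also compared. The rank and enrichment of a peak belong to its own list, so a lower rank in a longer list is no change in level. With 1 library for most genotypes there is no test between the lists. Brackets give 95% Wilson intervals, which cover counting error only, and the 2 Pcgf1/2/4-/- lists give the only view of the spread between libraries.

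The windows below are 200 bases of mm9 (NCBIM37), plus strand, around peak summits that stand for 4 kinds of site met in the results, with each CpG in capitals since CpG content separated the lists. Grb10 stands for a site present in all 8 lists, Tdrkh for a germline promoter absent from the Pcgf6-/- list, Tlx2 for a developmental gene near the head of the Pcgf3/5/6-/- list, and the intergenic window for the peaks that led the Pcgf1/2/4-/- lists.
Grb10, chr11:11926921-11927120, intron: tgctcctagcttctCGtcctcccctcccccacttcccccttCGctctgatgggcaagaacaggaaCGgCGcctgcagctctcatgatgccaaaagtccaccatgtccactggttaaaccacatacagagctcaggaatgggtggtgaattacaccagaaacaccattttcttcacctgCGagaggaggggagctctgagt
Tdrkh, chr3:94217487-94217686, intron: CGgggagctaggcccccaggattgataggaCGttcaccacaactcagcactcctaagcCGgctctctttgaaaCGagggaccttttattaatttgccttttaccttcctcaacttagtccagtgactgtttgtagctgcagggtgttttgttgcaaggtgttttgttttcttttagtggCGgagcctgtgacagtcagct
Tlx2, chr6:83019422-83019621, intron: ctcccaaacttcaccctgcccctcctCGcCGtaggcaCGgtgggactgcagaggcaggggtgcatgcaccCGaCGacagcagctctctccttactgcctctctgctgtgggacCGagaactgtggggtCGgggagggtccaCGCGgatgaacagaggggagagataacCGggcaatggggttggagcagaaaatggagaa
Intergenic, nearest gene Gm10146, chr10:77851781-77851980: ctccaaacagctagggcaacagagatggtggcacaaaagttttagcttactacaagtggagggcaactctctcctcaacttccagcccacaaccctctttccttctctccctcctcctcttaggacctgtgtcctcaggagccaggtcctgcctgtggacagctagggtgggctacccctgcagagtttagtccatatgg
The Tlx2 window held 10 CpGs, the Grb10 and Tdrkh windows 5 each, and the intergenic window 0. The Grb10 peak (chr11:11926543-11927587) ranked 2 in wild-type with 9.12-fold enrichment and overlapped a RING1B peak. Wild-type PCGF6 and RING1B peaks overlapped the Tdrkh peak (chr3:94217464-94217781, rank 225, 6.5-fold in wild-type). Tlx2, a homeobox gene, lay under a Pcgf3/5/6-/- peak of 5917 bases (chr6:83017230-83023146, rank 2, 27.1-fold), where wild-type cells had PCGF1, PCGF2 and RING1B peaks. The intergenic peak (chr10:77850242-77852994) was rank 1 of Pcgf1/2/4-/- replicate 1 at 15.7-fold, lay 3065 bases from a coding gene's start, and was called in all 8 lists with no PCGF or RING1B peak in wild-type.

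The RNA libraries of the same lines, 2 per genotype with totals from 2147968 to 7848161 counts, gave a check of the labels. Nothing in the labels says that the 2 come from separate cultures, so adjusted p-values measure only the spread between them. Pcgf1 fell from 66.1 and 61 CPM (counts scaled to a common library size) in the wild-type libraries to 4.81 and 3.2 in Pcgf1-/- and to 0.534 and 0.903 in Pcgf1/2/4-/-. Pcgf6 was 36.2 and 34.3 CPM in wild-type, 0 and 0 in Pcgf6-/-, and 42.0 and 37.2 in Pcgf3/5/6-/-. Pcgf5 was 13.0 and 10.8 CPM in wild-type, 5.48 and 4.60 in Pcgf3/5-/- and 16.4 and 13.5 in Pcgf3/5/6-/-, and Pcgf3 was 16.4 and 15.5 in wild-type, 11.4 and 12.8 in Pcgf3/5-/- and 13.6 and 13.5 in Pcgf3/5/6-/-. Pcgf2 was not lower in Pcgf2/4-/- (41.0 and 54.8 CPM against 42.9 and 48.9) or in Pcgf1/2/4-/- (57.1 and 56.9 CPM), and Bmi1 passed no test in either. The labels describe edited clones screened by PCR and western blot; a transcript count does not show whether protein was made, so for Pcgf2, Bmi1, Pcgf3, and for Pcgf5 and Pcgf6 in Pcgf3/5/6-/-, transcript levels check nothing. The summed level of 7 embryonic stem cell markers (Pou5f1, Nanog, Sox2 and others) was between 1603 and 3178 CPM in all 14 libraries.

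The number of H2AK119ub1 peaks differed over 100-fold among the lists, and it was largest in the lines labelled Pcgf2/4-/- and Pcgf3/5-/-; the lists of Pcgf1/2/4-/- and Pcgf3/5/6-/-, which carry a further edit, were far shorter. The wild-type list held 1741 peaks over 1.12 Mb. Pcgf3/5-/- held 128786 peaks over 78.0 Mb and Pcgf2/4-/- held 121944 over 83.3 Mb, which were 74.0 and 70.0 times the wild-type number. The other lines lay closer to wild-type. Pcgf3/5/6-/- had 14353 peaks over 18.6 Mb, Pcgf1-/- 10882 over 6.73 Mb and Pcgf6-/- 5287 over 4.53 Mb. The 2 Pcgf1/2/4-/- lists held 2202 and 1070 peaks, over 1.36 and 0.908 Mb, one above and the other below wild-type and 2 libraries of the same genotype. All 8 lists stopped at a −log10 p of 10, and their peak numbers had gaps: the wild-type list held 30.8% of the numbers up to its highest, and the Pcgf3/5-/- list 83.2%. At a −log10 p of at least 20 the sizes were 31 in wild-type, 51099 in Pcgf3/5-/- and 33096 in Pcgf2/4-/-, so the order of these 3 did not rest on the weakest peaks. Histone mark libraries received fly chromatin as a reference, per the labels' protocols, and whether the lists were scaled by it is not given in the sources used here. Library depth is not given for these libraries either, and their part in list size was not tested.

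**Figure D1:**
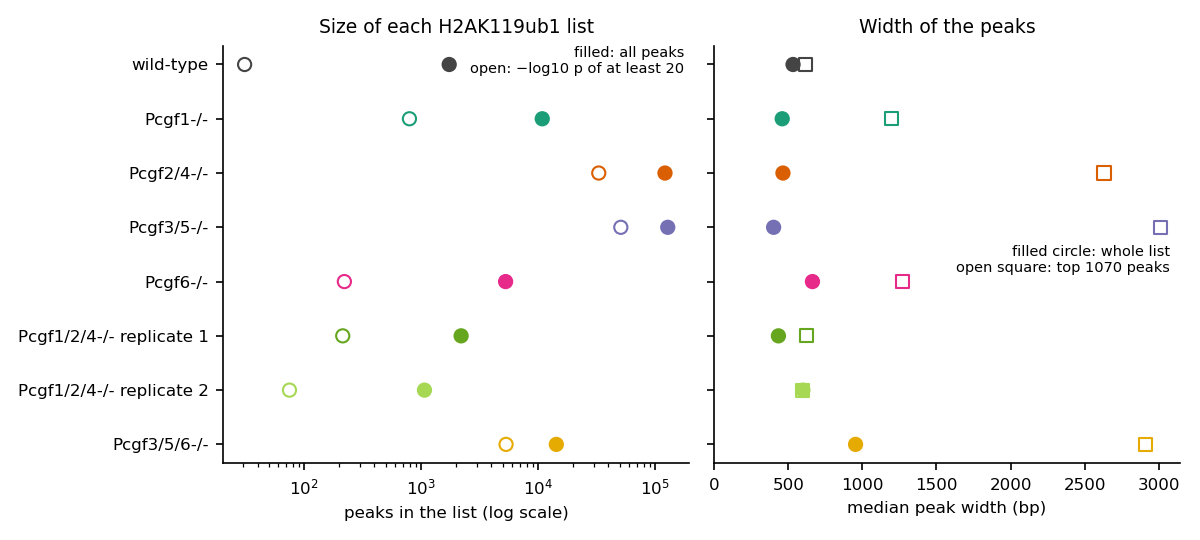
Left, the number of H2AK119ub1 peaks in each of the 8 lists on a log axis (filled, all peaks; open, −log10 p of at least 20); right, the median peak width in bp (circle, whole list; square, top 1070 peaks). The Pcgf2/4-/- and Pcgf3/5-/- lists lie far to the right, and the top peaks of these 2 and of Pcgf3/5/6-/- are the widest.

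The strongest peaks also differed in width. Among the top 1070 peaks the median width was 614.5 bp in wild-type, 622 and 598.5 bp in Pcgf1/2/4-/-, 1196.5 bp in Pcgf1-/- and 1272 bp in Pcgf6-/-. It was 2631 bp in Pcgf2/4-/-, 2911 bp in Pcgf3/5/6-/- and 3011 bp in Pcgf3/5-/-. Over whole lists, which in the long lists are mostly weak peaks, the medians ran from 401 bp in Pcgf3/5-/- to 954 bp in Pcgf3/5/6-/-. When peaks within 3 kb of each other were joined, the widest wild-type stretch spanned 21.6 kb on the X chromosome near Gm17379. In Pcgf3/5/6-/- it spanned 99.9 kb over the Hoxc cluster (nearest start Hoxc10), in Pcgf6-/- 40.6 kb at Hoxd11, in Pcgf2/4-/- 247 kb near Irf8, which encodes a haematopoietic transcription factor, and in Pcgf3/5-/- 215 kb near Grm4, a glutamate receptor gene. Both Pcgf1/2/4-/- lists had their widest stretch at Nkx1-1, a homeobox gene, with 44.4 and 29.9 kb.

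Most wild-type peaks lay at gene starts, and the 2 Pcgf1/2/4-/- lists were the ones with the lowest share there among equal numbers of top peaks. A peak was called a promoter peak when it came within 2.5 kb of any annotated start, a zone that covers 9.29% of the genome. Of the top 1070 peaks, 72.1% were promoter peaks in wild-type [69.4 to 74.8], 71.6% in Pcgf2/4-/- [68.8 to 74.2], 63.5% in Pcgf6-/- [60.5 to 66.3] and 57.9% in Pcgf1-/- [54.9 to 60.8]. The share was 88.1% in Pcgf3/5-/- [86.1 to 89.9] and 93.6% in Pcgf3/5/6-/- [92.0 to 95]. In the 2 Pcgf1/2/4-/- libraries it was 28.1% [25.5 to 30.9] and 27.7% [25.1 to 30.4]. Those 2 values differed by less than their intervals and lay far from all 6 others. Of the top peaks 42.2% and 45.3% were intergenic in Pcgf1/2/4-/-, against 12% in wild-type and 3.18% in Pcgf3/5/6-/-. Whole lists gave another order, because their tails are long: 70.4% in wild-type, 79.3% in Pcgf3/5/6-/-, 52.8% in Pcgf6-/-, 37.9% in Pcgf1-/-, 30.1% in Pcgf3/5-/-, 23.5% in Pcgf2/4-/- and 27.2% in the longer Pcgf1/2/4-/- list.

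Base composition followed the same split. The observed over expected CpG ratio in 500 bp around the summit had a median of 0.602 among the top 1070 peaks of Pcgf3/5/6-/- and 0.572 in Pcgf3/5-/-, against 0.496 over all promoters of coding genes. Wild-type (0.312), Pcgf2/4-/- (0.320), Pcgf1-/- (0.299) and Pcgf6-/- (0.252) lay between these and the genome median of 0.155. The 2 Pcgf1/2/4-/- lists were near the genome value, at 0.178 and 0.187. Top peaks without RING1B of the same line were low elsewhere too, at 0.191 in wild-type, 0.188 in Pcgf1-/- and 0.182 in Pcgf6-/-. They were at 0.223 in Pcgf2/4-/-, but at 0.573 in both Pcgf3/5-/- and Pcgf3/5/6-/-. With RING1B the Pcgf1/2/4-/- top peaks had 0.358 and 0.327, against 0.375 in wild-type. H3K4me3, taken from the wild-type list so that all lines face the same peaks, overlapped 96.4% of the top peaks in Pcgf3/5/6-/-, 90.7% in Pcgf3/5-/- and 69.3% in Pcgf2/4-/-. It overlapped 38.3% in wild-type and 9.63% and 9.81% in the Pcgf1/2/4-/- libraries. The Tlx2 and intergenic windows printed above are examples of both ends. Overlap with H3K4me3 or with the promoter zone needed 1 bp. The top peaks of Pcgf3/5/6-/-, Pcgf3/5-/- and Pcgf2/4-/- had median widths of 2911, 3011 and 2631 bp, against 614.5 bp in wild-type. The part of peak width in these shares was not tested.

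**Figure D2:**
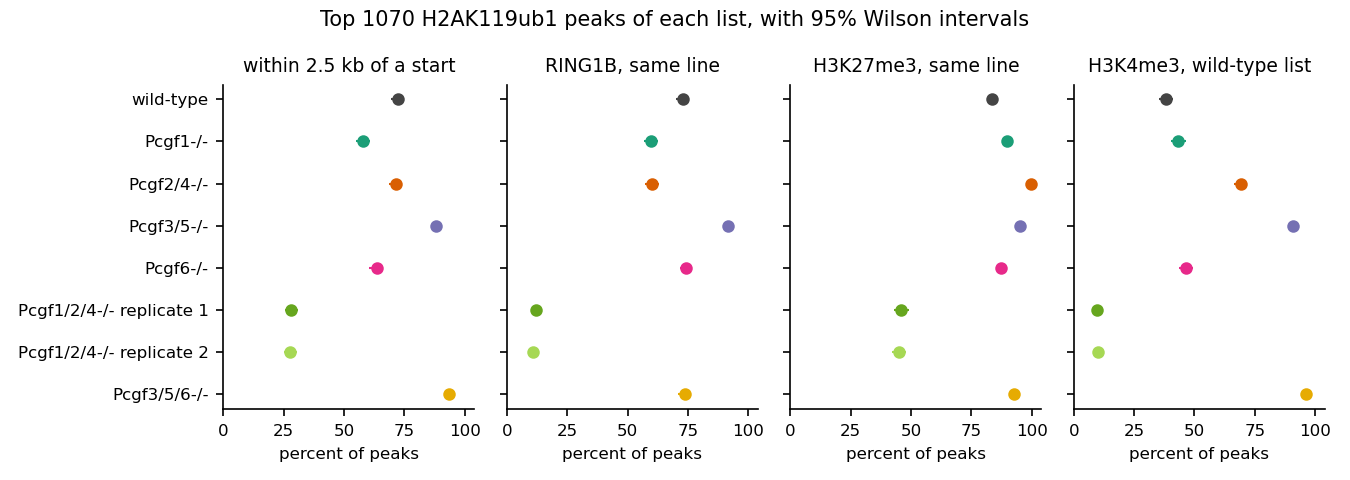
Share of the top 1070 H2AK119ub1 peaks of each list, in percent, that lie within 2.5 kb of a start or overlap peaks of RING1B or H3K27me3 of the same line, or wild-type H3K4me3; bars are 95% Wilson intervals and cover counting error only. The 2 Pcgf1/2/4-/- libraries sit together at the left of every panel, and Pcgf3/5-/- and Pcgf3/5/6-/- at the right of the promoter and H3K4me3 panels.

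RING1B of the same line was found under most of the strongest H2AK119ub1 peaks in every line but Pcgf1/2/4-/-. Of the top 1070 peaks it overlapped 72.8% in wild-type [70.1 to 75.4], 91.6% in Pcgf3/5-/- [89.8 to 93.1], 74.4% in Pcgf6-/- [71.7 to 76.9], 73.7% in Pcgf3/5/6-/- [71.0 to 76.3], 60.1% in Pcgf2/4-/- [57.1 to 63.0] and 59.6% in Pcgf1-/- [56.7 to 62.5]. In Pcgf1/2/4-/-, whose RING1B lists were also the shortest with 2051 and 1814 peaks, it overlapped 12% [10.2 to 14] and 10.7% [8.94 to 12.6]. Against the wild-type RING1B list of 5454 peaks instead, the Pcgf1/2/4-/- shares were 18.4% and 19.2%, so they were the lowest of the 8 with this longer list too. H3K27me3 of the same line overlapped 83.7% of the top wild-type peaks, 99.9% in Pcgf2/4-/- and 46.0% and 45.0% in Pcgf1/2/4-/-. Those H3K27me3 lists were unequal, with 8063, 112110 and 3918 peaks, the last used for both Pcgf1/2/4-/- libraries. Against the wild-type H3K27me3 list the shares were 81.9% in Pcgf2/4-/- and 28.0% and 27.5% in Pcgf1/2/4-/-.

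The RING1B share fell with rank in each list. Ranks 1 to 500 gave 80.6% in wild-type, 66% in Pcgf1-/-, 63.2% in Pcgf2/4-/-, 96.4% in Pcgf3/5-/-, 80.2% in Pcgf6-/- and 83.8% in Pcgf3/5/6-/-. The same bin gave 16.6% and 13.8% in Pcgf1/2/4-/-. Over whole lists the share was 68.2% in wild-type and 48.2% in Pcgf6-/-, but 25.2% in Pcgf1-/-, 19.2% in Pcgf3/5/6-/-, 4.31% in Pcgf3/5-/- and 3.66% in Pcgf2/4-/-. Most peaks of the 2 longest lists thus lay where no RING1B peak was called, in lists that covered 3.05% and 3.25% of the genome. The overlap rule mattered for the wide peaks: when RING1B had to cover at least 50% of the peak, the top 1070 share was 64.1% in wild-type, 24.2% in Pcgf2/4-/-, 39.6% in Pcgf3/5/6-/- and 5.89% and 5.33% in Pcgf1/2/4-/-.

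**Figure D3:**
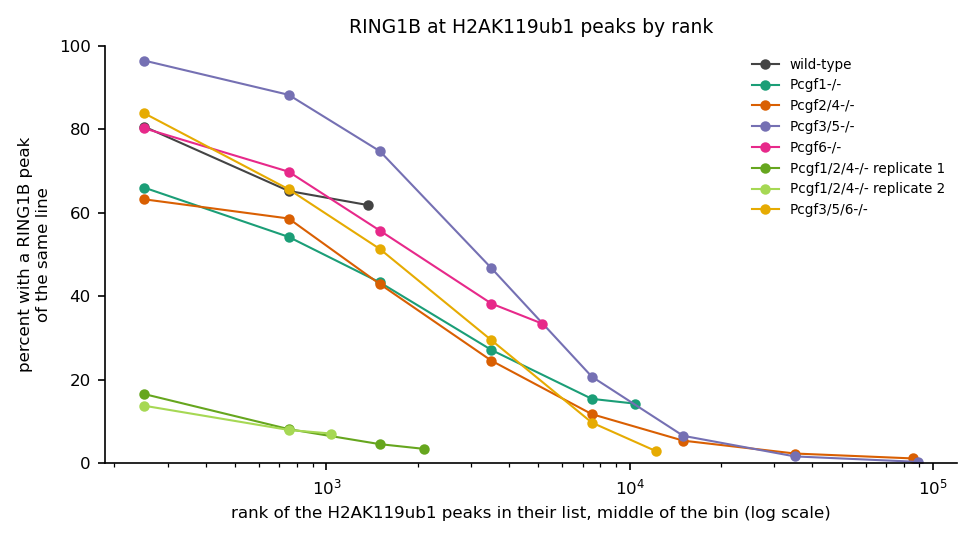
Percent of H2AK119ub1 peaks overlapped by a RING1B peak of the same line, by rank of the H2AK119ub1 peak (middle of each rank bin, log axis), for the 8 lists. All curves fall with rank, and both Pcgf1/2/4-/- curves start below 20%, under the other 6.

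Read from the RING1B side, the mark was found at a small part of RING1B peaks in wild-type and at nearly all of them in the lines labelled Pcgf3/5-/- and Pcgf3/5/6-/-. An H2AK119ub1 peak overlapped 16.3% of the 5454 wild-type RING1B peaks and 42.1% of the 1000 strongest. The share was 97.3% of 5586 RING1B peaks in Pcgf3/5-/-, 95.7% of 3068 in Pcgf3/5/6-/- and 77.7% of 5607 in Pcgf2/4-/-. It was 34.4% in Pcgf1-/- and 32.5% in Pcgf6-/-. The shares were 8.09% of 2051 and 6.01% of 1814 in Pcgf1/2/4-/-. The length of the H2AK119ub1 list moves with these shares, and the RING1B lists were unequal too. Against the 5454 wild-type RING1B peaks the shares were 98.1% in Pcgf3/5-/-, 83.5% in Pcgf2/4-/- and 81.6% in Pcgf3/5/6-/-. They were 34.5% in Pcgf1-/-, 26.7% in Pcgf6-/- and 5.43% and 3.19% in Pcgf1/2/4-/-. The Pcgf3/5/6-/- list covers 0.727% of the genome and the Pcgf2/4-/- list 3.25%. The part of list length in these shares was not tested.

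Most wild-type sites were found again in every line except Pcgf1/2/4-/-. Of the 1741 wild-type peaks, 95.2% were overlapped in Pcgf2/4-/-, 93.9% in Pcgf3/5-/-, 88.0% in Pcgf3/5/6-/-, 77.9% in Pcgf1-/- and 74.1% in Pcgf6-/-. In the Pcgf1/2/4-/- libraries 23.7% and 16.6% were overlapped. Against the top 1070 peaks of each knockout, the same 1741 peaks were overlapped in 53.3% of cases in Pcgf3/5-/-, 51.2% in Pcgf2/4-/-, 47.3% in Pcgf3/5/6-/-, 38.1% in Pcgf1-/-, 37.3% in Pcgf6-/- and 17.4% and 16.6% in Pcgf1/2/4-/-. The 2 Pcgf1/2/4-/- libraries were lowest in both series, while Pcgf2/4-/- was highest over whole lists and Pcgf3/5-/- at equal list size. The commonest pattern was presence in the 5 other knockouts and absence from both Pcgf1/2/4-/- libraries, which held 705 wild-type peaks, 76.5% of them at promoters and 81.6% with RING1B. Another 108 peaks were in all 7 knockout lists and 4 were in none.

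The share of wild-type peaks kept in Pcgf1/2/4-/- differed with what else was bound there in wild-type, in the same direction in both libraries. RING1B-bound wild-type peaks were kept in 18.3% and 11.1% of 1187 cases, and those without RING1B in 35.2% and 28.3% of 554. PCGF2-bound peaks were kept in 18.1% and 10.8% of 861 cases, against 29.1% and 22.3% of 880 without PCGF2. PCGF6-bound peaks went the other way, with 58.5% and 48.8% of 82 kept against 21.9% and 15.0% of 1659. The 2 libraries shared most of these sites: 821 of the 1070 replicate 2 peaks (76.7%) overlapped replicate 1, and 40.2% of the replicate 1 peaks overlapped replicate 2. Of the 821 shared peaks 29.2% were in the wild-type list, 69.1% in Pcgf1-/- and 74.7% in the much longer Pcgf2/4-/- list.

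PCGF6-bound sites stood out in Pcgf6-/- as well. Of the 82 wild-type peaks with PCGF6, 45.1% [34.8 to 55.9] were found in Pcgf6-/-, against 75.5% [73.4 to 77.5] of those without it; in Pcgf1-/- the same classes gave 93.9% and 77.2%. In Pcgf3/5/6-/-, 74.4% of the PCGF6-bound peaks and 88.7% of the others were found. RING1B-bound wild-type peaks were kept in 98.0% of cases in Pcgf3/5/6-/-, and those without RING1B in 66.6%. Among 349 coding genes whose promoters had PCGF6 and RING1B but no PCGF2 in wild-type, 12% were marked in wild-type, 4.87% in Pcgf6-/-, 48.7% in Pcgf3/5/6-/- and 99.4% in Pcgf3/5-/-. All 3366 coding genes with wild-type RING1B at the promoter gave 22.3%, 34.4%, 87.0% and 99.7% in the same order. All coding genes gave 3.76%, 6.94%, 31.2% and 65.1%.

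Of all 22238 coding genes, the share with a promoter peak in the whole list and in the top 1070 peaks gives the background for the gene lists that follow. It was 3.76% and 2.51% in wild-type, 9.81% and 1.99% in Pcgf1-/-, 40.9% and 2.89% in Pcgf2/4-/-, 65.1% and 4.01% in Pcgf3/5-/-, and 6.94% and 2.31% in Pcgf6-/-. It was 1.65% and 0.899% in Pcgf1/2/4-/- replicate 1, 0.832% in replicate 2, whose whole list is its top 1070, and 31.2% and 4.29% in Pcgf3/5/6-/-. A count in the whole Pcgf2/4-/-, Pcgf3/5-/- or Pcgf3/5/6-/- list is therefore to be read beside those high shares of all genes.

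The Hox genes, clustered homeobox genes that pattern the body axis, carried the mark in every line but Pcgf1/2/4-/-. Of 39 Hox genes 26 had a promoter peak in wild-type, 28 in Pcgf1-/-, 30 in Pcgf6-/-, and 39 in Pcgf2/4-/-, Pcgf3/5-/- and Pcgf3/5/6-/-. In Pcgf1/2/4-/- the counts were 2, Hoxb1 and Hoxd1, and 0. Among the top 1070 peaks the counts were 22 in wild-type, 14 in Pcgf1-/-, 12 in Pcgf2/4-/-, 24 in Pcgf3/5-/-, 19 in Pcgf6-/-, 25 in Pcgf3/5/6-/- and 1 and 0 in Pcgf1/2/4-/-. The extent of the mark differed more than these counts. Peaks covered 8.57% of the Hoxa cluster (chr6:52105366-52210874), 2.35% of Hoxb, 4.82% of Hoxc and 6.15% of Hoxd in wild-type. In Pcgf3/5/6-/- they covered 80.9%, 40.3%, 70.2% and 71.1%, more than the 58.7%, 33.5%, 42.3% and 53.3% in Pcgf3/5-/-, although that list held far more peaks. In Pcgf1/2/4-/- replicate 1 they covered 0.132% of Hoxb and 0.635% of Hoxd, and 0 of the other clusters; replicate 2 had 0 in all 4.

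Developmental regulators outside the Hox clusters lost the mark in Pcgf1/2/4-/- less completely. Of 37 genes, 26 were marked in wild-type, 33 in Pcgf1-/-, 36 in Pcgf2/4-/-, 37 in Pcgf3/5-/-, 31 in Pcgf6-/- and 36 in Pcgf3/5/6-/-. Pcgf1/2/4-/- had 12 and 8. The genes marked in all 8 lists were Pax6, Nkx2-2, Lhx1, Lhx2, Neurog1, Six2 and Evx1, regulators of eye, neural, kidney and mesoderm development; 62 coding genes in all were in every list. Evx1, a homeobox gene beside the Hoxa cluster, ranked 66 in wild-type at 7.21-fold, 197 and 287 in Pcgf1/2/4-/- at 8.03-fold and 6.47-fold, and 24 in Pcgf2/4-/- at 27-fold. Gata2 and Gata3, zinc-finger factors of blood and trophoblast development, had wild-type promoter peaks at ranks 150 and 450 and none in either Pcgf1/2/4-/- library. Cdx2, a trophoblast and hindgut regulator, was marked in wild-type (rank 570), absent from Pcgf1-/- and from both Pcgf1/2/4-/- libraries, and at rank 29 in Pcgf3/5/6-/- with 22.3-fold enrichment.

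Signalling genes followed the Hox pattern. Of 20 ligands and antagonists of the Wnt, BMP, FGF and Hedgehog pathways, 10 were marked in wild-type, 14 in Pcgf1-/- and in Pcgf6-/-, 20 in Pcgf2/4-/- and in Pcgf3/5-/-, 19 in Pcgf3/5/6-/-, and 3 and 0 in Pcgf1/2/4-/-. The 3 were Wnt5a, Bmp7 and Igf2. Wnt5a, a ligand of non-canonical Wnt signalling, ranked 267 in wild-type at 6.61-fold, 94 in Pcgf6-/- at 8.71-fold and 1538 in Pcgf1/2/4-/- replicate 1 at 5.57-fold.

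Germline genes shared the higher counts of Pcgf1-/-, Pcgf2/4-/- and Pcgf3/5-/-, but not those of Pcgf6-/- and Pcgf3/5/6-/-, and their count did not fall in Pcgf1/2/4-/-. Of the 20 annotated members of the list, 5 were marked in wild-type, 15 in Pcgf1-/-, 18 in Pcgf2/4-/-, 20 in Pcgf3/5-/-, 6 and 5 in Pcgf1/2/4-/-, 4 in Pcgf3/5/6-/- and 0 in Pcgf6-/-. The 5 wild-type genes were Tdrkh and Tdrd1, Tudor proteins of the piRNA pathway, Smc1b, a meiotic cohesin subunit, Sycp1, a protein of the synaptonemal complex, and Mei1, a meiotic gene. Tdrkh ranked 225 in wild-type at 6.5-fold, and 63 and 73 in Pcgf1/2/4-/- at 9.68-fold and 7.94-fold. It was at rank 358 in Pcgf3/5-/- at 38.8-fold and had no peak in Pcgf6-/- or Pcgf3/5/6-/-. Smc1b ranked 371 in wild-type, 190 and 692 in Pcgf1/2/4-/-, 89 in Pcgf3/5-/- and 7665 in Pcgf3/5/6-/-, where no RING1B peak was called at it. Within the top 1070 peaks the list had 5 marked genes in wild-type, 6 and 5 in Pcgf1/2/4-/-, 8 in Pcgf3/5-/-, 3 in Pcgf1-/-, 2 in Pcgf2/4-/-, and 0 in Pcgf6-/- and Pcgf3/5/6-/-. Of these 20 genes, 18 had a PCGF6 peak at the promoter in wild-type.

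Housekeeping genes were marked in number in the Pcgf3/5-/- list, and in few or no cases in the others. Of 20 housekeeping genes 0 were marked in wild-type, Pcgf1-/-, Pcgf6-/- or Pcgf1/2/4-/-, 1 in Pcgf2/4-/- (Rpl13a), 2 in Pcgf3/5/6-/- (Rpl13a and B2m) and 17 in Pcgf3/5-/-, with Actb at rank 31893 and 9.43-fold and Gapdh at rank 50295 and 7.78-fold. Within the top 1070 peaks none of the 8 lists held any. Of 17 annotated pluripotency genes 1 was marked in wild-type (Esrrb), 13 in Pcgf3/5-/-, 10 in Pcgf3/5/6-/- and 9 in Pcgf2/4-/-; Klf4 was at rank 1098 in Pcgf3/5/6-/- and 6658 in Pcgf3/5-/-, and Nanog in none. Over the 11442 genes with H3K4me3 and no RING1B in wild-type, the marked share was 0.655% in wild-type, 81.4% in Pcgf3/5-/-, 37.8% in Pcgf2/4-/-, 34.3% in Pcgf3/5/6-/-, 3.35% in Pcgf1-/- and 2.89% in Pcgf6-/-. Beside the shares of all coding genes, that of Pcgf3/5-/- was above (65.1%), that of Pcgf3/5/6-/- close (31.2%) and that of Pcgf2/4-/- below (40.9%). The median expression of marked genes was 0.713 and 0.844 CPM in the 2 wild-type libraries, where all coding genes had 6.99 and 7.03, and 18.2 and 15.3 CPM for the whole Pcgf3/5-/- list, where all coding genes had 8.29 and 7.10. The whole Pcgf3/5/6-/- list had 15.2 and 14.5 CPM against 10.4 and 10.1 for all coding genes. The whole Pcgf2/4-/- list, nearly as long as that of Pcgf3/5-/-, went the other way with 2.09 and 3.19 CPM against 4.61 and 6.77. For the top 1070 peaks it was 0.936 and 0.767 CPM in Pcgf3/5-/- and 4.11 and 4.39 CPM in Pcgf3/5/6-/-.

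**Figure D4:**
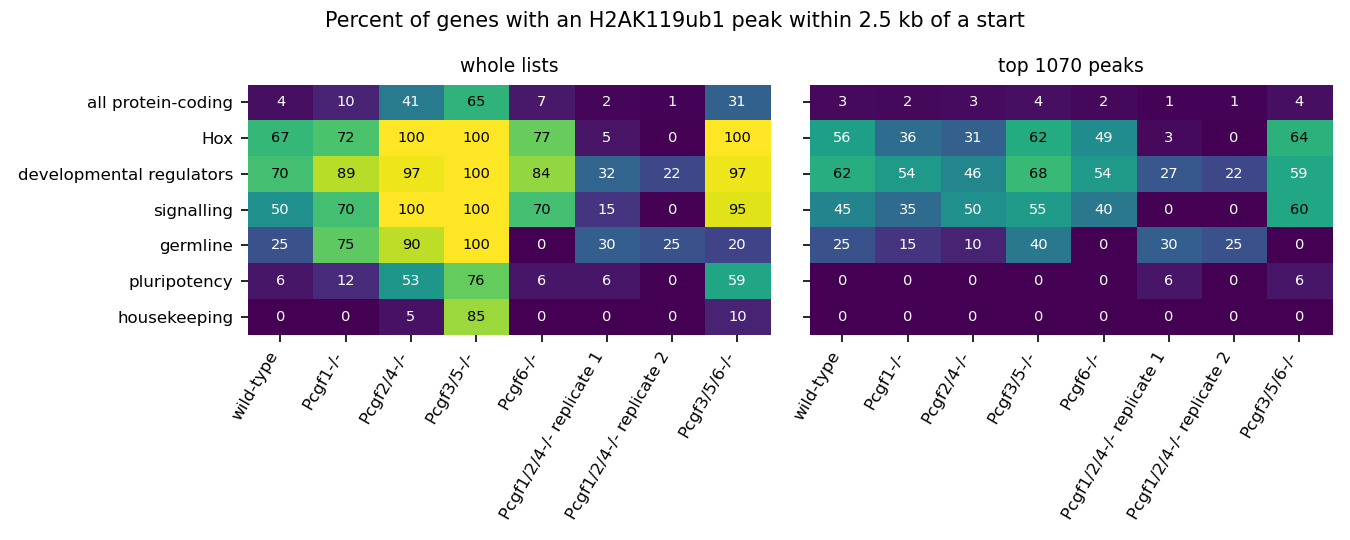
Percent of genes in each list with an H2AK119ub1 peak within 2.5 kb of a start, for the 8 libraries, over whole lists (left) and over the top 1070 peaks (right), with all 22238 coding genes in the top row. Hox and signalling genes are near 0 in Pcgf1/2/4-/- and germline genes are at 0 in Pcgf6-/-.

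The 10 strongest wild-type peaks belonged to 7 genes. Gm17379 on the X chromosome, a predicted gene, was the nearest coding gene of 4 of them. The top one, 11298 bp from its start (chrX:166434847-166435910, 11.7-fold) ranked 1 in wild-type, Pcgf1-/-, Pcgf6-/- and Pcgf3/5/6-/- and 101 and 123 in Pcgf1/2/4-/-; peaks were called there in 8 of 8 RING1B, 7 of 7 SUZ12, 5 of 5 H3K4me3 and 3 of 5 H3K36me3 lists, so libraries of unlike marks share it. Grb10, an imprinted growth-factor receptor adaptor, ranked 2 in wild-type, Pcgf1-/- and both Pcgf1/2/4-/- libraries, 1 in Pcgf2/4-/- and 288 in Pcgf3/5/6-/-. Lmx1b, a LIM homeobox gene, Dio3, an imprinted deiodinase, and Pcdh8, a protocadherin, were found in all 8 lists. Barx1, a homeobox gene of tooth and stomach, was at rank 4 in wild-type (9.49-fold), 1084 in Pcgf1/2/4-/- replicate 1 and absent from replicate 2. Plk5, a member of the polo-like kinase family, was at rank 5 in wild-type (9.06-fold), 189 in Pcgf2/4-/-, 109 in Pcgf3/5-/-, 526 in Pcgf6-/-, 25 in Pcgf3/5/6-/- and 3353 in Pcgf1-/-, and absent from both Pcgf1/2/4-/- libraries.

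The highest wild-type promoter peaks with nothing within 5 kb in a knockout were Heyl, Prph and Hdac2 for Pcgf1-/-, at ranks 38, 63 and 76. Hdac2, which encodes a histone deacetylase, was also missing from Pcgf6-/-, where 1700003F12Rik (rank 43) and Sfi1 (rank 52) preceded it, but ranked 99 and 297 in the Pcgf1/2/4-/- libraries. The Sfi1 peak was only 2.56-fold enriched, with no RING1B or PCGF peak there in wild-type. For both Pcgf1/2/4-/- libraries such peaks included Plk5 and Hr (rank 18, a corepressor gene). Ccdc85c (rank 19) was among them for replicate 1, and Barx1 for replicate 2 only. Pcgf3/5/6-/- missed Sfi1, Gm4969 and 2900010M23Rik at ranks 52, 93 and 115. For the 2 longest lists the first absent peaks lay further down the wild-type list. They were Smap1 at rank 949 and Prdm2 at 1392 for Pcgf2/4-/-. For Pcgf3/5-/- they were Lmln at 385 and 1176 (16143 and 15519 bp from the coding start, at other annotated starts).

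Peaks with no wild-type peak within 5 kb reached the head of the knockout lists. Pcgf3/5/6-/- had Tlx2 at rank 2, Tcfap2a, an AP-2 transcription factor, at rank 6 (24.2-fold) and 6430527G18Rik at rank 12. Pcgf3/5-/- had Ptpru, a receptor phosphatase, at rank 24 (50.6-fold) and Syt6, a synaptotagmin, at rank 32. Syt6 was also at rank 13 in Pcgf2/4-/-, followed by Tmem200b and by Tet3, a methylcytosine dioxygenase, at ranks 53 and 57. In Pcgf6-/-, Fezf2, a forebrain zinc-finger gene, was at rank 19, Syt6 at rank 36 and Zmiz1 at rank 50. Pcgf1-/- began at rank 76 with Gm1564, followed by Lypd4 and Fam195b. In Pcgf1/2/4-/- they were Grm4, Tspan5 and a second Grb10 peak at ranks 47, 83 and 102 of replicate 1, and Grm4 and peaks at the starts of other annotated transcripts nearest to the coding genes Aldh1b1 and Smndc1 at ranks 60, 93 and 98 of replicate 2. RING1B of the same line was called at the Tlx2, Tcfap2a and 6430527G18Rik peaks and, among those of Pcgf1/2/4-/-, at Tspan5 but not at the other 5.

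The RNA of the same lines was compared between genes that lost a wild-type promoter peak and genes that kept it. In edgeR's quasi-likelihood test of 15464 genes, with Benjamini-Hochberg adjusted p below 0.05, the background raised and lowered was 13.9% and 18.4% in Pcgf1-/-, 8.1% and 13.5% in Pcgf2/4-/-, 11.1% and 10.4% in Pcgf3/5-/-, 27.8% and 18.6% in Pcgf6-/-, 14.4% and 22.6% in Pcgf1/2/4-/-, and 28% and 25.3% in Pcgf3/5/6-/-. With DESeq2 the split over all genes in Pcgf1/2/4-/- was 2883 raised and 2764 lowered, against 2222 and 3495 in the main test. Of the 836 genes marked in wild-type, 515 passed the filter on low counts. A silent gene that passed through its knockout counts had to be higher there, so the raised counts below are a description. In these bulk samples, fewer expressing cells and less RNA per cell cannot be told apart.

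In Pcgf6-/-, 169 genes lost their promoter mark, and of the 115 tested 64 were raised (55.7%) and 8 lowered (6.96%), with a median log2 fold change of 0.69. Among 400 tested genes that kept the mark, 115 were raised (28.8%) and 88 lowered (22%), with a median of 0.12. The median over all genes was 0.03. The raised share was alike whether RING1B was still called at the promoter in Pcgf6-/- (54.4% of 57) or not (56.9% of 58). The 3 feeder-fibroblast markers Col1a1, Col1a2 and Thy1 summed to 27.9 and 24.1 CPM in Pcgf6-/- against 10.6 and 7.45 in wild-type. Neural markers (Pax6, Neurog2, Nes, Sox1) summed to 20.5 and 16.5 CPM against 6.42 and 4.08, with Neurog2 and Sox1 at 0. Trophoblast markers (Cdx2, Krt7, Krt8) summed to 246 and 261 against 168 and 182, but 2 were raised and Cdx2 was lowered. Mesoderm markers (T, Eomes, Mixl1) summed to 7.35 and 7.35 against 55.2 and 49.4. The part of other cells in these results was not tested. The lowered count of 8 was 4 without Pcgf6-/- replicate 2 and 5 without either wild-type library, in fits where the lone library is assumed to vary like the others.

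The germline genes were among those that lost the mark and rose in Pcgf6-/-. All 5 wild-type marked members had lost it, and all 5 were raised; over the list, 19 of 20 tested genes were raised with a median log2 fold change of 3.44. Tdrkh went from 7.13 and 3.24 CPM to 137 and 148 CPM (log2 fold change 4.77, SE 0.20, edgeR adjusted p = 4.89e-10). Sycp1 went from 2.28 and 2.11 to 76.8 and 78.0 CPM (5.12, SE 0.26), and Tdrd1 from 0.428 and 0.563 to 26.1 and 25 CPM (5.62, SE 0.31). The knockout libraries lay above the wild-type ones by a wide margin in each case. Smc1b was 55.3 and 65.9 CPM against 3.85 and 4.22, and Mei1 13.1 and 11 against 1.85 and 2.39, although RING1B was still called at the Mei1 promoter. Germline genes without a wild-type peak were raised too: Ddx4, an RNA helicase of germ cells, rose from 16.1 and 15.2 to 224 and 250 CPM, and Mael, of the piRNA pathway, from 20.1 and 23.9 to 194 and 220 CPM. In Pcgf1/2/4-/-, where Tdrkh kept its peak in both libraries, it was 3.74 and 4.52 CPM. In Pcgf3/5/6-/- 18 of the 20 were raised, with Tdrkh at 130 and 136 CPM.

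Loss of the mark was common in Pcgf1/2/4-/- and the raised share of its genes was near the background, while their lowered share was below it. Of 629 genes with no promoter peak in either library, 386 were tested; 70 were raised (18.1%) and 47 lowered (12.2%), against 14.4% and 22.6% of all genes, with a median log2 fold change of 0.10 where all genes had −0.11. Among 129 tested genes that kept a peak 18 were raised and 19 lowered. The raised count was 41 without Pcgf1/2/4-/- replicate 2, and the lowered count 18 without either of its libraries and 28 or 29 without a wild-type one. Of 20 housekeeping genes, which had no mark in either library, 13 were raised with a median of 1.00, including Gapdh (88.0 and 90.6 CPM to 301 and 258). Their median was 0.51 in Pcgf2/4-/- and 0.63 in Pcgf3/5/6-/-, and from −0.07 to 0.11 in the other lines. Feeder markers summed to 0.534 and 0.903 CPM in Pcgf1/2/4-/- against 10.6 and 7.45 in wild-type, and neural markers to 5.34 and 7.23 against 6.42 and 4.08. Mesoderm markers summed to 20.3 and 19.0 CPM against 55.2 and 49.4, with 1 of 3 called lowered. T went from 36.2 and 30.0 to 1.60 and 2.26 CPM, and Eomes from 11.4 and 12.2 to 9.61 and 10.8. Trophoblast markers summed to 229 and 266 CPM, with 2 raised and Cdx2 lowered. The part of these markers was not tested.

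Many Hox genes that lost the mark rose in Pcgf1/2/4-/-. Of the 26 marked in wild-type, 25 had lost the mark in both Pcgf1/2/4-/- libraries; 11 of these were tested and 8 were raised. Hoxa10 went from 3.71 and 4.22 CPM to 43.2 and 47.4 CPM (log2 fold change 3.51, SE 0.25, edgeR adjusted p = 6.76e-07), with no overlap between groups. Hoxa7 went from 11.6 and 10.5 to 18.7 and 34.3 CPM (1.28, adjusted p = 0.00178), a call that was lost without Pcgf1/2/4-/- replicate 2, when the log2 fold change was 0.76. Hoxd13, at 0 counts in both wild-type libraries, had 5.87 and 5.42 CPM. Hoxa2 (3.00 and 3.66 CPM in wild-type, 1.60 and 2.71 in Pcgf1/2/4-/-) and Hoxa3 (1.28 and 0.844 against 0.534 and 0.452) passed no test. In Pcgf2/4-/-, where all 39 Hox genes had promoter peaks, 10 of 18 tested were raised, with Hoxa10 at 25.1 and 26.7 CPM, so a peak was called at genes that rose as well. In Pcgf1-/-, 11 of the 18 were raised and 1 lowered, with Hoxa10 at 24.7 and 19.7 CPM and a promoter peak at rank 824. In Pcgf6-/- 0 were raised and 7 lowered, in Pcgf3/5/6-/-, the line with the widest Hox coverage, 1 and 8, and in Pcgf3/5-/- 1 and 1. Hoxa10 had 0 and 0.676 CPM in Pcgf3/5/6-/-. These lines share the same 2 wild-type RNA libraries.

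In Pcgf3/5/6-/- genes were raised whether or not they kept the mark. Of the 34 genes that lost it, 26 were tested, 19 were raised and 2 lowered, with a median log2 fold change of 1.35; the lowered count was 1 without any of the 4 libraries compared. Of 489 tested genes that kept it 293 were raised (59.9%) and 52 lowered (10.6%), with a median of 1.29 where all genes had 0.05. The 20 housekeeping genes had a median of 0.63, with 6 raised and 2 lowered. Gata2 was 40.4 and 45.6 CPM against 7.28 and 4.92 in wild-type (log2 fold change 2.81, SE 0.26), and Gata3 96.4 and 95.3 against 12.7 and 13.8 (2.85, SE 0.17), both with promoter peaks. Igf2, an imprinted growth factor that was marked too, went from 0.571 and 1.13 to 274 and 274 CPM (8.29, SE 0.24). Cdx2 fell to 18.6 and 20.3 CPM from 71.1 and 77.8. Tlx2, whose peak ranked 2, had 1.71 and 1.83 CPM in wild-type and 0 and 0 in Pcgf3/5/6-/-. The trophoblast markers Cdx2, Krt7 and Krt8 summed to 794 and 828 CPM against 168 and 182 in wild-type. The feeder markers summed to 37.0 and 34.8 CPM against 10.6 and 7.45. The neural markers summed to 25.9 and 26.7 CPM against 6.42 and 4.08, with Neurog2 and Sox1 at 0. The mesoderm markers summed to 15.8 and 13.9 CPM against 55.2 and 49.4. The part of these markers in the results was not tested. Endoderm markers summed to at most 5.07 CPM in the 14 libraries.

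Gata3 also rose in Pcgf1/2/4-/-, where its peak was lost (45.9 and 53.7 CPM, log2 fold change 1.91), whereas Gata2, which lost its peak there as well, had 2.67 and 2.71 CPM (−1.17, edgeR adjusted p = 0.0712). Plk5, with no peak in Pcgf1/2/4-/-, was 31.0 and 31.6 CPM against 2.85 and 2.39 (3.57, SE 0.40), and Barx1, at 0 counts in wild-type, was 2.14 and 4.06 CPM. Cdx2 lost its promoter peak in Pcgf1-/- and Pcgf1/2/4-/- and fell in both, to 24.2 and 21.3 CPM and to 33.1 and 37.5 CPM. It also fell in Pcgf6-/-, to 4.61 and 6.13 CPM, with a peak present.

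In the other lines few genes lost the mark, or the change was small. Pcgf1-/- lost it at 136 genes, of which 95 were tested, 23 raised (24.2%) and 15 lowered (15.8%), with a median log2 fold change of 0.04. Those counts depended on single libraries: 14 were raised without wild-type replicate 2 or without Pcgf1-/- replicate 1, and 8 and 9 lowered without wild-type replicate 2 and without Pcgf1-/- replicate 2. Pcgf2/4-/- lost it at 3 genes, with none raised or lowered by edgeR (0 of 3 tested, 1 lowered without Pcgf2/4-/- replicate 2), and Pcgf3/5-/- at 0. Of tested genes that gained a mark among the top 1070 peaks, 11.8% were raised and 30.3% lowered in Pcgf1-/-, and 7.52% and 33.1% in Pcgf2/4-/-. In Pcgf3/5/6-/- 38.2% were raised and 21.4% lowered.

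**Figure D5:**
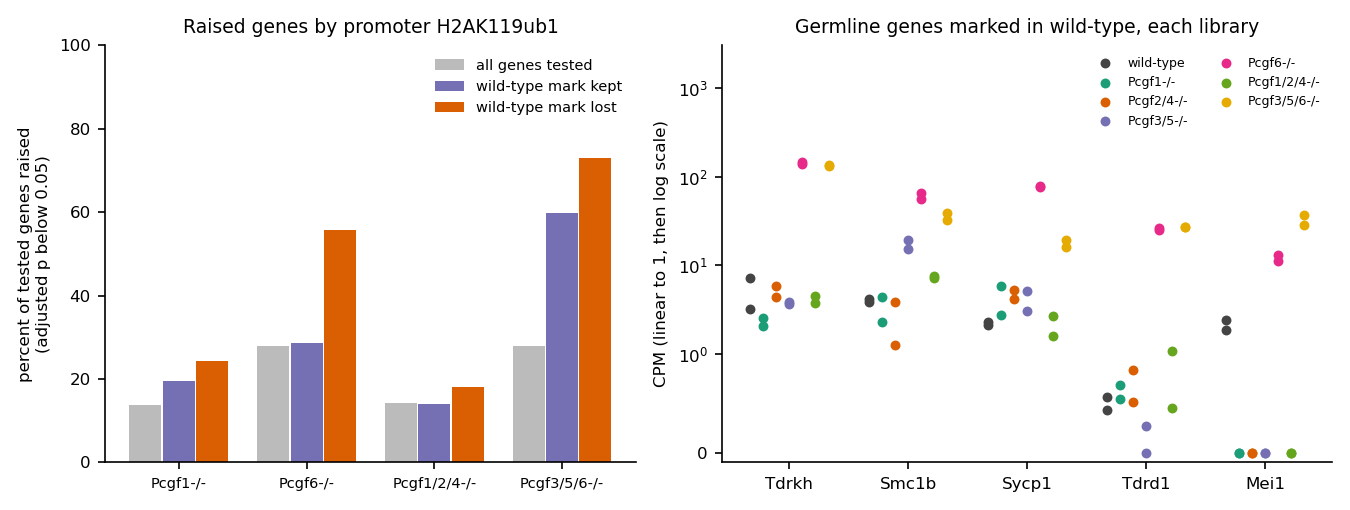
Left, percent of tested genes raised at an edgeR adjusted p below 0.05 among all genes, genes that kept and genes that lost the wild-type promoter mark, in the 4 lines with over 3 genes that lost it; right, CPM of each RNA library (linear to 1, then log) for the 5 germline genes marked in wild-type. Bars for lost genes reach 55.7% in Pcgf6-/- (64 of 115 tested) and 73.1% in Pcgf3/5/6-/- (19 of 26). The Pcgf6-/- and Pcgf3/5/6-/- points lie above the wild-type ones for all 5 genes.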

How the data were processed

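ChIP-seq of 8 H2AK119ub1 libraries and RNA-seq of 14 libraries from mouse E14 cells were used. Per the submitters' processing notes, which name Bowtie 1.2.2, TopHat2 2.1.1, MACS2 2.1.1, Picard 1.62 and HTSeq 0.7.2 with build mm9, peaks and counts were made by the authors; the notes give neither the role of each tool nor the peak calling settings. Each deposited peak list gives a fold enrichment ratio and −log10 p and q values per peak, as the authors' caller wrote them. The deposited table holds raw counts for 23377 genes.

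Peaks were ranked by −log10 p, then fold. Promoters were 2.5 kb around the starts of GENCODE M1; overlap needed 1 bp. Genes were joined by symbol (19446 of 22238 coding symbols matched). Counts were tested with edgeR 4.0.16 (quasi-likelihood, TMM scaling, filterByExpr, all 14 libraries in 1 fit, biological coefficient of variation 12.25%) in R 4.3.3, with Benjamini-Hochberg adjustment over 15464 genes and DESeq2 1.42.0 as an alternative; the code was tested on simulated data. Genes were named by rule: the nearest coding genes of the 10 highest wild-type peaks, the 3 highest promoter peaks absent from each knockout or from wild-type within 5 kb, members of gene lists in list order, and the targeted genes; Gata3, Evx1, Cdx2, Igf2 and other list members described further were chosen after their values were seen. The lists and the comparisons were chosen with earlier results of these data known. Some genes that the rule names are not reported here.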

Additional observations from a re-analysis of the deposited data

How the results depend on the processing

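No called value changed sign under the alternatives run. A −log10 q of at least 5 removed no peak. At a −log10 p of at least 20, an alternative chosen after seeing the data, the lists held 31 (wild-type), 796 (Pcgf1-/-), 33096 (Pcgf2/4-/-), 51099 (Pcgf3/5-/-), 221 (Pcgf6-/-), 214 and 75 (Pcgf1/2/4-/-) and 5335 (Pcgf3/5/6-/-) peaks; of the 31 wild-type peaks 74.2%, 100%, 100%, 71.0%, 32.3% (mean) and 90.3% were kept in Pcgf1-/-, Pcgf2/4-/-, Pcgf3/5-/-, Pcgf6-/-, Pcgf1/2/4-/- and Pcgf3/5/6-/-. With a 1 kb window the promoter share over whole lists and over the top 1070 was 49.9% and 50.7% in wild-type, 26.1% and 45.5% in Pcgf1-/-, 14.9% and 63.2% in Pcgf2/4-/-, 21.2% and 83.0% in Pcgf3/5-/-, 35.6% and 49.0% in Pcgf6-/-, 16.5% and 17.8% in Pcgf1/2/4-/- replicate 1, 18.1% in replicate 2, and 68.3% and 90.7% in Pcgf3/5/6-/-. With at least 50% of the peak covered, RING1B overlapped 60.1% and 64.1% in wild-type, 21.0% and 50.1% in Pcgf1-/-, 2.21% and 24.2% in Pcgf2/4-/-, 2.95% and 63.9% in Pcgf3/5-/-, 43.3% and 66% in Pcgf6-/-, 3.77% and 5.89% in Pcgf1/2/4-/- replicate 1, 5.33% in replicate 2, and 8.61% and 39.6% in Pcgf3/5/6-/-. The same rule kept 74.0% of all and 78.9% of the top 1000 wild-type peaks in Pcgf1-/-, 88.7% and 89.2% in Pcgf2/4-/-, 88.3% and 89% in Pcgf3/5-/-, 71.8% of all in Pcgf6-/-, and a mean of 17.3% and 20.8% in Pcgf1/2/4-/-. Taking the 2 Pcgf1/2/4-/- libraries singly gave 16.6% to 23.7% of all and 20.6% to 27.9% of the top 1000 kept. These moves follow from the narrower windows and stricter overlaps; ranking by fold enrichment moved no share beyond its interval.

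For genes that lost the promoter mark, leaving out each library gave from 14 to 23 raised and 8 to 11 lowered genes in Pcgf1-/-, 0 raised and 0 to 1 lowered in Pcgf2/4-/-, 50 to 55 and 4 to 6 in Pcgf6-/-, 41 to 55 and 18 to 29 in Pcgf1/2/4-/-, and 15 to 17 and 1 in Pcgf3/5/6-/-. With the 2 compared groups alone 15 were lowered in Pcgf6-/-, 10 in Pcgf1-/-, and with RLE scaling or DESeq2 1 was lowered in Pcgf3/5/6-/-; with no filter 12 were lowered in Pcgf6-/-. Replicate numbers were not taken to pair RNA libraries, since same-numbered ones did not deviate together in most pairs of groups. Over 21 pairs the correlations ran from −0.593 to 0.492, with a median of 0.0131 and 3 above 0.1. The replicate block gave 64 raised in Pcgf6-/-, 67 in Pcgf1/2/4-/- and 19 in Pcgf3/5/6-/-, against 64, 70 and 19 without it; it moved none of the counts for lost genes by over 1.5 times and no named gene across the threshold. Over all genes, fitting only the 2 groups gave 440 raised and 706 lowered in Pcgf2/4-/- (1253 and 2087 in the fit of all groups), 1833 lowered in Pcgf1-/- (2853), 4373 lowered in Pcgf6-/- (2879) and 3998 raised in Pcgf1/2/4-/- (2222). Gata2 in Pcgf1/2/4-/- passed the threshold with only the 2 groups. The cause of these shifts was not tested. The single ChIP library per genotype limits all comparisons of peaks.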
